A study of Mus musculus with 2 samples.

Results

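The natural killer (NK) receptor genes and their adaptors were examined in 2 arrays of sorted mouse regulatory T (Treg) cells. Members were the gene probes whose name on the array design was a Klr gene of the families a to k, or Ncr1, Fcgr3, Tyrobp, Hcst or Fcer1g. This gave 36 genes and 54 probes, of 30071 gene names and 39348 probes in all. One library came from sorted Treg cells of Nr4a-TKO mice and is labelled Nr4a-deficient, and the other came from wild-type mice, all 5 weeks old. Not given in the labels are the deleted part of the Nr4a genes, the cells in which they were deleted, the strain, the tissue, the sort markers and the number of animals. Each library was hybridised to 1 single-colour array, so each group had 1 library (n = 1), there was no test, and every value describes these 2 libraries.

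NK cells read their targets through paired families of activating and inhibitory receptors. Most are lectin-like proteins encoded side by side in the NK gene complex on mouse chromosome 6. The Ly49 (Klra) and NKG2 receptors bind MHC class I or related proteins, the NKR-P1 (Klrb1) receptors bind lectin-like Clec2 proteins, and NKG2D (Klrk1) binds stress-induced ligands. Activating members have no signalling motif of their own and pair with the adaptors DAP12 (Tyrobp), DAP10 (Hcst) or the Fc receptor gamma chain (Fcer1g), whereas inhibitory members recruit the phosphatases SHP-1 and SHP-2. Effector T cells, Treg cells, myeloid cells and dendritic cells also use some of these genes.

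The Nr4a genes were read first because the labels concern them. Nr4a1 had a processed signal of 80407 in the library labelled Nr4a-deficient against 51441 intensity units in the wild-type library, 1.82-fold higher in the former after scaling. Both probes of Nr4a2 were also higher (log2 differences 0.98 and 0.68), whereas the Nr4a3 probe read 22.3 and 71.6, well above background on neither array. A probe outside the deleted part checks nothing. Nr4a1 and Nr4a2 were thus not lower in the library labelled Nr4a-deficient, and Nr4a3 was too dim to tell. Since the deleted part is not given, the label could not be checked. Every direction in the text rests on that label. Of the Treg markers, Foxp3 was above background on both arrays but dim (74.5 and 85.4), and 1 of 9 listed genes, Il2ra, differed at least 2-fold (2.42-fold lower).

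Signals below are the processed intensities of the scanner software, with its own error estimate for the spot after the ± sign. Pairs of values give the library labelled Nr4a-deficient first. Differences are on the log2 scale, the library labelled Nr4a-deficient minus the wild-type library, after the 75th percentile of each array was subtracted. Each gene is given by the brightest of the probes that the software called well above background on at least 1 array. Where only 1 array had that call, the fold is a bound, written as at least: the dim side is then taken as the probe's own value or as the lowest value with the call on that array, whichever is higher. The lowest signal with the call was 51.1 in the library labelled Nr4a-deficient against 73.8 in the wild-type library, so dim transcripts were called more easily in the former. Between repeated spots of 1 probe within an array, the SD of a log2 difference was 0.25 for dim, 0.091 for middle and 0.044 for bright probes, which leaves out any spread between animals or sorts. The 8 spike-in RNAs lay 0.37 ± 0.058 (SD, n = 8) above 0 after scaling, so each difference is lower by 0.37 if they are taken as the scale. Any positive log2 difference or list median under 0.37 then turns negative.

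Most of the 36 genes were dim or undetected in both libraries. Of them, 22 were well above background on at least 1 array and 14 on neither. Of the 22, 10 were above background on both arrays, 11 in the library labelled Nr4a-deficient only and 1 in the wild-type library only. Among all 18541 genes above background, the share called only in the library labelled Nr4a-deficient was 8.62%, and the share called only in the wild-type library was 3.48%. With 1 common lowest signal for both arrays, 3 genes (Klra8, Klrb1b and Klri2) left the detected set. Of the remaining 19, 8 were called only in the library labelled Nr4a-deficient. The share over all genes with that common limit was not computed, and the 8.62% does not apply to it. By probe, 40.7% of member probes were well above background in that library and 20.4% in the wild-type library, against 58.7% and 55.6% of all probes. Fewer cells of a type and less RNA per cell cannot be told apart in these sorted bulk samples.

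**Figure D1:**
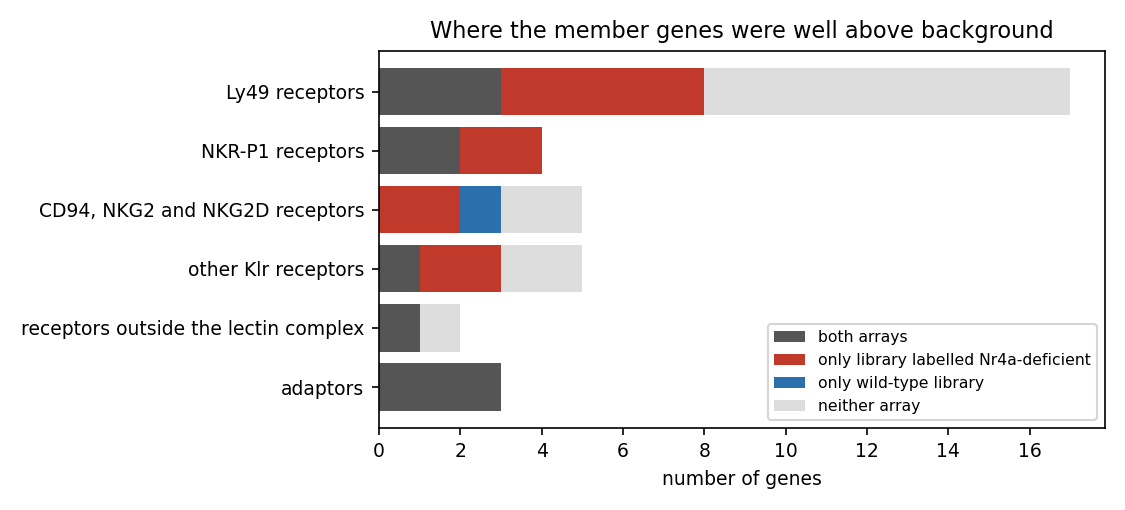
Number of member genes (x axis) in each role (y axis) that were well above background on both arrays, on 1 array or on neither. All 3 adaptors were above background on both arrays, 9 of 17 Ly49 genes were above background on neither, and Klrc3 made up the wild-type-only bar.

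Counting bounds, 6 members were at least 2-fold higher (Klrd1, Klrk1, Klra17, Klra9, Klrg1 and Klra16) and 1 was lower (Klrc3) in the library labelled Nr4a-deficient. The same count over all genes was 4.7% higher and 4.94% lower. Among the 10 members above background on both arrays, 7 lay above 0 and 3 below (6 and 4 on the spike-in scale, where Hcst turned), with a median log2 difference of 0.66. Over all 16298 genes above background on both arrays the median was -0.014, with 7791 above 0 and 8507 below.

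**Figure D2:**
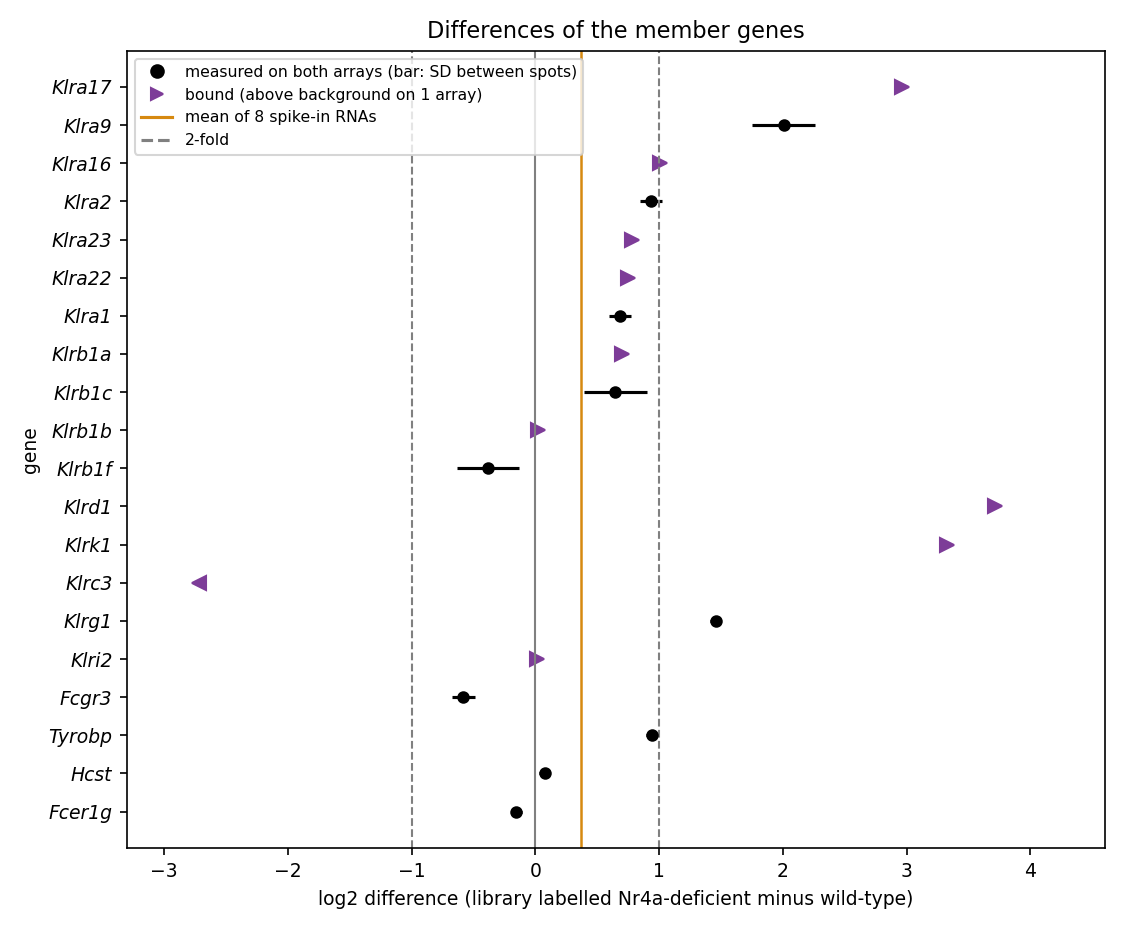
Log2 difference (x axis, library labelled Nr4a-deficient minus the wild-type library) of the 20 member genes with a value, by role. Circles are genes above background on both arrays with the SD between repeated spots as a bar (for bright probes it is within the symbol), triangles are bounds, dashed lines mark 2-fold, and the orange line marks the spike-in RNAs at 0.37. Klrd1 and Klrk1 stand farthest to the right and Klrc3 farthest to the left.

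Klrd1, Klrk1 and Klrc3 were each called in 1 library only, and not in the same one. Klrd1 encodes CD94, the common chain of the NKG2 heterodimers, and Klrk1 encodes NKG2D, the activating receptor that pairs with Hcst and Tyrobp. Each had 1 probe, and the first 30 bases of each are shown because the calls of these genes rest on these probes alone. The probe of Klrd1 lies on mm9 at chr6:129548612-129548671 on the plus strand and that of Klrk1 at chr6:129561864-129561923 on the minus strand.
Klrd1: tctcatacatttgtacccaagtaatttata
Klrk1: aagcaaggcactatatttgaaagtatatag

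Klrd1 read 832 ± 84.1 in the library labelled Nr4a-deficient against 42.9 ± 18.3 in the wild-type library. It was at least 13.1-fold higher (log2 bound 3.71), or at least 6.71-fold with normexp background correction. Klrk1 read 637 ± 64.5 and 36.4 ± 15.2, at least 10.0-fold higher (log2 bound 3.32), or 6.52-fold with normexp. Both genes were thus clearly detected in 1 library and not well above background in the other.

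Klrc3, which encodes the CD94 partner NKG2E, was the only member called in the wild-type library alone. Its probe there read 391 ± 42.6, against 12.4 ± 12.4 in the library labelled Nr4a-deficient, at least 6.59-fold lower in the latter (log2 bound -2.72). The log2 bound was -1.73 with normexp and -2.19 with the same lowest signal on both arrays. The other 2 probes of Klrc3 were at the software's surrogate for undetected spots in both libraries, at 13.6 and 10.5 in the library labelled Nr4a-deficient against 18.8 and 15.1 in the wild-type library. The signal of Klrc3 therefore rests on 1 of 3 probes. That probe is placed at chr6:129591548-129592745 on the minus strand of mm9, a span longer than the probe, so the design has it across a splice junction. The adjoining probe at chr6:129591495-129591554 begins where it ends, and the 7 bases in capitals are common to both.
Klrc3, above background in the wild-type library: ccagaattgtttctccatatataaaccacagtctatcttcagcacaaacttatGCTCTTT
Klrc3, adjoining, above background on neither array: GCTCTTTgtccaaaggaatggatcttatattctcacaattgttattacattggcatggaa

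The other CD94 partners were not detected. The probes of Klrc1, which encodes the inhibitory receptor NKG2A, and of Klrc2, which encodes the activating receptor NKG2C, were well above background on neither array. One Klrc1 probe read 19.0 ± 11.1 and 64.6 ± 16.9, and the other 10.8 and 15.5. With the software's more lenient call of positive and significant signal, Klrc1 joined Klrc3 among the genes at least 2-fold lower. Thus the library with the higher Klrd1 signal had no NKG2 chain of Klrc1, Klrc2 or Klrc3 above background.

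Ly49 receptors formed the largest family, with 17 genes and 29 probes. Of these, 8 were above background: Klra1, Klra2 and Klra9 on both arrays, and Klra8, Klra16, Klra17, Klra22 and Klra23 only in the library labelled Nr4a-deficient. The 3 of them past 2-fold were Klra17, Klra9 and Klra16, all higher, and 0 were lower. Klra17 encodes Ly49Q, which is known from plasmacytoid dendritic cells and myeloid cells rather than from NK cells. It was the only Ly49 gene with a pair of probes above background, and both are shown because their agreement bears on the gene's identity. The probe at chr6:129818820-129822239 crosses a splice junction by its span, and the other lies at chr6:129815690-129815749, both on the minus strand of mm9. The second is set beside the most similar place in the probe of Klra23 (chr6:130248722-130248781, minus strand), and capitals mark bases that are the same in both at the aligned position.
Klra17, junction probe: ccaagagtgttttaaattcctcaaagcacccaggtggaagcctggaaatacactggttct
Klra17, second probe: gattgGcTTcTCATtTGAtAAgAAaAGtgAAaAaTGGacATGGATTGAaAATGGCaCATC
Klra23: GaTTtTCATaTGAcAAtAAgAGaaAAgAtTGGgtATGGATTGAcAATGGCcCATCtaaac

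The second probe of Klra17 read 495 ± 51.1 in the library labelled Nr4a-deficient against 17.9 ± 17.8 in the wild-type library, at least 7.79-fold higher (log2 bound 2.96), or 4.25-fold with normexp. The junction probe read 456 ± 47.0 and 16.3 ± 16.2, at least 7.17-fold higher. Both probes were at the surrogate for undetected spots in the wild-type library. The probe of Klra23, the same as the second Klra17 probe at 41 of 55 aligned bases (74.5%), read 109 ± 15.6 and 39.7 ± 16.4, a bound of 1.72-fold. Its other 2 probes were above background on neither array, at 13.4 and 22.1 in the library labelled Nr4a-deficient against 18.4 and 18.8 in the wild-type library.

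Klra9, which encodes the inhibitory receptor Ly49I, was the Ly49 gene that differed most among those above background on both arrays. Its probe read 352 ± 37.0 in the library labelled Nr4a-deficient against 102 ± 19.1 in the wild-type library. This was 4.01-fold higher (2.64-fold with normexp), and the SD of a log2 difference between spots was 0.25 at this brightness. Klra2, which encodes Ly49B, a receptor known mainly from myeloid cells, read 481 ± 49.7 and 293 ± 34.0 (1.91-fold, log2 difference 0.93). Klra1, which encodes the MHC class I receptor Ly49A, read 1200 ± 121 and 869 ± 88.7 (1.60-fold, log2 difference 0.68). Both stayed under 2-fold, and on the spike-in scale their log2 differences were 0.56 and 0.31.

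The remaining detected Ly49 genes were close to the detection limit. Klra16, the third of the Ly49 genes past 2-fold, read 128 ± 16.3 and 54.2 ± 15.7, a bound of 2.01-fold that fell below 2-fold in 5 of 11 alternative settings. Its other 2 probes were above background on neither array. Klra22 read 106.5 ± 16.4 and 33.3 ± 17.2, a bound of 1.68-fold, and its second probe was above background on neither array. Klra8, which encodes Ly49H, the activating receptor for a viral protein, read 55.3 ± 12.1 and 55.9 ± 16.3 and had no fold, since its bound was under 1.

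Some Ly49 probes resemble each other in sequence. The probes of Klra16 and Klra22 that were above background, both only in the library labelled Nr4a-deficient, share a stretch with 35 of 39 bases the same (89.7%). The first 30 bases of that stretch are shown because the pair may not tell the genes apart, and capitals again mark the same base in both. Whether 1 transcript gave both signals was not tested. The probe of Klra22 lies at chr6:129922175-129922234 on the minus strand of mm9, and the array design gives that of Klra16 no place on mm9.
Klra16: CATCTTCCTTCCcTGTtGAgAcTGGACAGA
Klra22: CATCTTCCTTCCtTGTgGAaAaTGGACAGA

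Of 9 Ly49 probes above background, 4 had at least 80% identity over at least 20 bases with a probe of another member gene, as did 14 of 20 Ly49 probes not above background. None of the other 25 member probes had such a match. The 4 were the probes of Klra16, Klra22 and Klra23 above background and the junction probe of Klra17, which matched a Klra33 probe at 27 of 33 bases (81.8%). That Klra33 probe read 14.0 and 19.9, and the second probe of Klra17 had no such match. The count missed the Klra1 probe, which shares a long run of identical bases with a Klra16 probe above background on neither array (13.7 and 18.5). Values of Klra1, Klra16, Klra22 and Klra23 are therefore uncertain at the level of the single gene. RefSeq's gene table (GRCm38.p6) lists Klra22 as a synonym of Klra1 and Klra33 as a synonym of Klra4, and it has no symbol Klra12, Klra15 or Klra19. On mm9, however, the array design places the Klra1 probe at chr6:130314070-130314129, away from both probes of Klra22. It places a Klra16 probe close to that of Klra1, at chr6:130314197-130314256. A Klra15 probe at chr6:129922274-129922333 overlaps a Klra22 probe at chr6:129922235-129922294. Ly49 gene content is known to differ between mouse strains. The 9 Ly49 genes above background on neither array were Klra4, Klra5, Klra6, Klra7, Klra10, Klra12, Klra15, Klra19 and Klra33. Klra5 had a probe in 10 spots, and of the 9 spots kept on each array 0 were well above background. The spots left out as outliers read 164 in the library labelled Nr4a-deficient against 242 in the wild-type library.

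**Figure D3:**
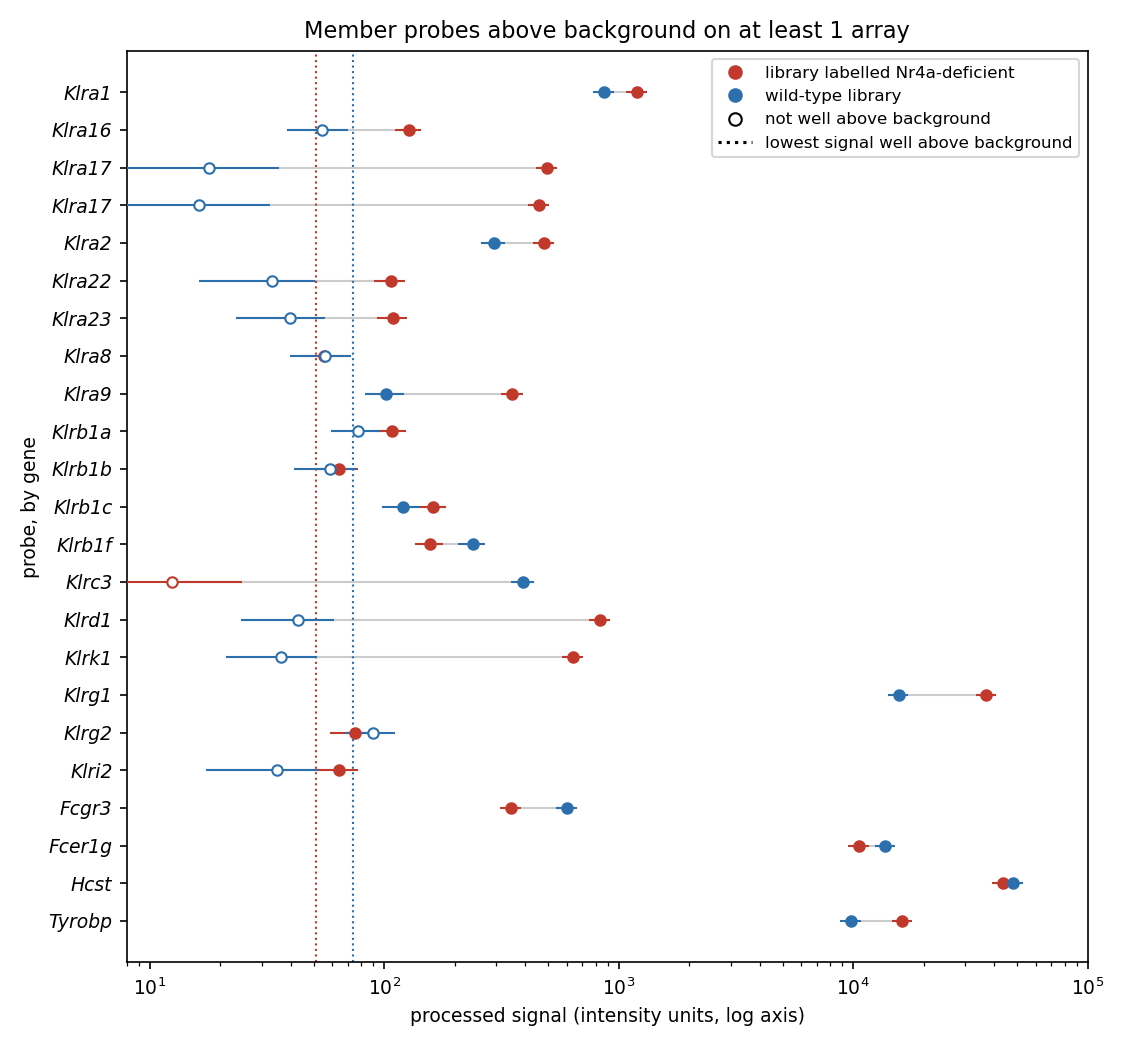
Processed signal (x axis, intensity units, log axis) of the 23 member probes that were well above background on at least 1 array, by gene (y axis), in the library labelled Nr4a-deficient (red) and the wild-type library (blue). Bars are the scanner software's error estimates (cut off where they reach the left edge), open circles are not well above background, and dotted lines mark the lowest signal with that call on each array, 51.1 and 73.8. The widest gaps are those of Klrd1, Klrk1, Klra17 and Klrc3.

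The NKR-P1 receptors were detected at low signals and differed less. All 4 genes were above background on at least 1 array, and 0 were past 2-fold in either direction. Klrb1c, which encodes the NK cell antigen NK1.1, read 162 ± 20.9 in the library labelled Nr4a-deficient against 120 ± 22.0 in the wild-type library (1.57-fold, log2 difference 0.65), and its second probe was above background on neither array. Klrb1a read 108 ± 16.1 and 77.4 ± 18.1, a bound of 1.62-fold, and Klrb1b, an inhibitory receptor for Clec2d, read 64.4 ± 13.1 and 58.6 ± 17.2, a bound of 1.01-fold. Klrb1f, a receptor for Clec2i, was lower, at 157 ± 21.5 and 238 ± 31.4 (log2 difference -0.38, against a spot SD of 0.25). The family thus had members on both sides of 0.

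Klrg1 fell in the bright class of probes in both libraries. It encodes an inhibitory receptor for cadherins that marks terminally differentiated effector T cells and a subset of effector Treg cells. Its probe, at chr6:122220629-122220688 on the minus strand of mm9, read 36953 ± 3695 in the library labelled Nr4a-deficient against 15627 ± 1563 in the wild-type library. This was 2.75-fold higher (log2 difference 1.46), against a spot SD of 0.044, and 1.09 on the spike-in scale. Klri2, which forms heterodimers with Klre1, read 64.0 ± 13.7 and 35.0 ± 17.5, a bound of 1.01-fold. Klrg2 was called only in the library labelled Nr4a-deficient, at 74.8 ± 16, although its signal in the wild-type library was 89.8 ± 21.8, so no fold is given. Klre1 and Klri1 were above background on neither array.

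The receptors outside the lectin complex did not follow Klrd1 and Klrk1. Ncr1 encodes NKp46, a receptor that defines NK cells across strains, and it was well above background in neither library, at 23.5 ± 11 in the library labelled Nr4a-deficient against 15.2 ± 15.2 in the wild-type library. Fcgr3, which encodes the low-affinity IgG receptor of NK and myeloid cells, was lower in the library labelled Nr4a-deficient, at 348 ± 36.5 against 605 ± 62.5 (log2 difference -0.58, against a spot SD of 0.091).

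All 3 adaptors had bright signals in both libraries. Tyrobp, the DAP12 adaptor, read 16205 ± 1621 in the library labelled Nr4a-deficient against 9814 ± 982 in the wild-type library (1.92-fold higher, log2 difference 0.94, or 0.57 on the spike-in scale). Hcst, the DAP10 adaptor of NKG2D, read 43651 ± 4365 and 48149 ± 4815, a log2 difference of 0.075 that turned to -0.30 with the spike-ins as the scale. Fcer1g, the Fc receptor gamma chain, read 10594 ± 1060 and 13710 ± 1371 (log2 difference -0.16). Tyrobp and Hcst are neighbours on chromosome 7, with mm9 probes at chr7:31200651-31202378 and chr7:31202736-31202795. Tyrobp was the adaptor nearest to 2-fold, and 0 of the 3 passed it.

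Ligands, signalling genes and other users of the adaptors mostly lay within 2-fold. Of 17 ligand genes on the array, 11 were above background, with 1 at least 2-fold higher, 0 lower and a median of 0.11. Cdh1, which encodes E-cadherin, a ligand of Klrg1, read 299 and 17 and was at least 4.70-fold higher. The NKG2D ligands Raet1b, H60b and Ulbp1 lay at -0.026, 0.47 and -0.11. H2-T23, which encodes the CD94 ligand Qa-1, lay at 0.19, and Clec2d and Clec2i, ligands of the NKR-P1 receptors, at 0.46 and -0.37. Of the 11 detected ligands, Cdh1 was the only one past 2-fold.

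Of 24 genes that signal below the adaptors and the inhibitory tails, 23 were above background, 2 at least 2-fold higher and 1 lower, with a median of 0.11. Lat2, an adaptor, read 831 and 194 and was 4.98-fold higher. Plcg2, a phospholipase, was 2.67-fold higher, and Vav3, a guanine nucleotide exchange factor, was 2.42-fold lower. The kinases Syk and Zap70 lay at 0.65 and 0.45, and the phosphatase genes Ptpn6 and Ptpn11 at 0.19 and 0.11. Of 13 other lectin-like genes of the complex, 9 were above background, 1 higher and 2 lower, with a median of -0.062. Clec9a, a receptor of dendritic cells, was 5.63-fold higher, whereas Clec1b, a platelet and myeloid receptor, read 171 and 1721 and was 8.67-fold lower, and Clec1a was at least 3.51-fold lower. Of 19 other receptors that pair with Tyrobp or Fcer1g, 11 were above background, 2 higher and 1 lower, with a median of -0.013. Sirpb1a was 5.63-fold and Fcgr4 2.36-fold higher, Clec4d at least 2.02-fold lower, and Siglech, the DAP12 partner that marks plasmacytoid dendritic cells, lay at 0.10.

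Markers of other cell types that use these genes were read beside the members, and their part in the members' differences was not tested. A summed scaled signal mostly follows the brightest genes of its list, such as Csf3r (196662 and 211731) among the myeloid markers. It is not an amount of a cell type. Of 19 NK cell markers other than the members, 14 were above background, with 1 at least 2-fold higher, 1 lower and a median of 0.012, and their summed scaled signal was 37.8 in the library labelled Nr4a-deficient against 36.7 in the wild-type library. Nkg7, a cytotoxic granule gene, was 2.14-fold higher and Xcl1, a chemokine gene, at least 3.55-fold lower. Eomes, the lineage factor of NK cells, lay at -0.38, Prf1, which encodes perforin, at 0.046 and Gzma, which encodes granzyme A, at -0.16. S1pr5, Cma1, Khdc1a, Serpinb9b and Zfp683 were above background on neither array, as was the member Ncr1. Of the 14 detected markers, Nkg7 was thus the only one past 2-fold in the direction of Klrd1 and Klrk1.

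All 7 markers of CD8 T cells, which also use Klrd1, Klrk1 and Klrg1, were above background, 1 higher (Crtam, 2.30-fold) and 1 lower (Ctsw, 2.90-fold), with a median of 0.081. Their summed scaled signal was 3.19 in the library labelled Nr4a-deficient against 5.44 in the wild-type library. Ctsw, the brightest of the list at 2535 and 8523, weighs most in that sum. The defining genes Cd8a and Cd8b1 went the other way, at 0.51 and 0.42. Of 5 markers of NKT and innate-like T cells, 3 were above background and 0 past 2-fold. Zbtb16, their lineage factor, had a bound of 1.82-fold and was called in the library labelled Nr4a-deficient alone.

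Plasmacytoid dendritic cells, from which Klra17 is known, had the marker list with the highest median, though not the highest ratio of summed signals. All 11 were above background on both arrays and above 0, and 9 were at least 2-fold higher, with a median of 2.50. This list was written with earlier results of these data known. Their summed scaled signal was 128 in the library labelled Nr4a-deficient against 86.8 in the wild-type library. Cox6a2 read 8217 and 83.8 (114-fold higher), and Upb1, Cd209d and Rnase6 were 49.9-fold, 32.1-fold and 24.1-fold higher. Tcf4, the lineage factor of these cells, was 7.57-fold higher. Siglech, the brightest of the list in both libraries and so the gene that weighs most in the sum, lay at 0.10. It read 136839 and 147869 by the brightest of its 3 probes, above the T cell gene Cd3e (109161 and 111548). Whether that probe reads Siglech alone was not tested. Conventional dendritic cell markers had 3 of 6 detected genes higher and 0 lower (median 1.46, summed scaled signal 4.25 and 0.999), and B cell markers 3 of 9 higher and 0 lower (median 0.95, 18.2 and 9.32), with Pax5, the B cell lineage factor, above background on neither array.

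Myeloid markers went both ways, as did the members that myeloid cells use. Of 18 detected, 3 were at least 2-fold higher and 6 lower, with a median of -0.083 and a summed scaled signal of 174 in the library labelled Nr4a-deficient against 180 in the wild-type library. The macrophage genes C1qc (3.03-fold) and C1qa (2.92-fold) were lower and Mpeg1 (2.63-fold) was higher, while of the members Fcgr3 and Fcer1g lay below 0 and Tyrobp and Klra2 above. Of 10 mast cell and basophil markers, 4 were above background, 1 of them higher (Hdc, 4.90-fold), with a median of -0.49 and a summed scaled signal of 0.469 and 0.432. The defining genes Mcpt8, Fcer1a, Cpa3 and Ms4a2 were above background on neither array.

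**Figure D4:**
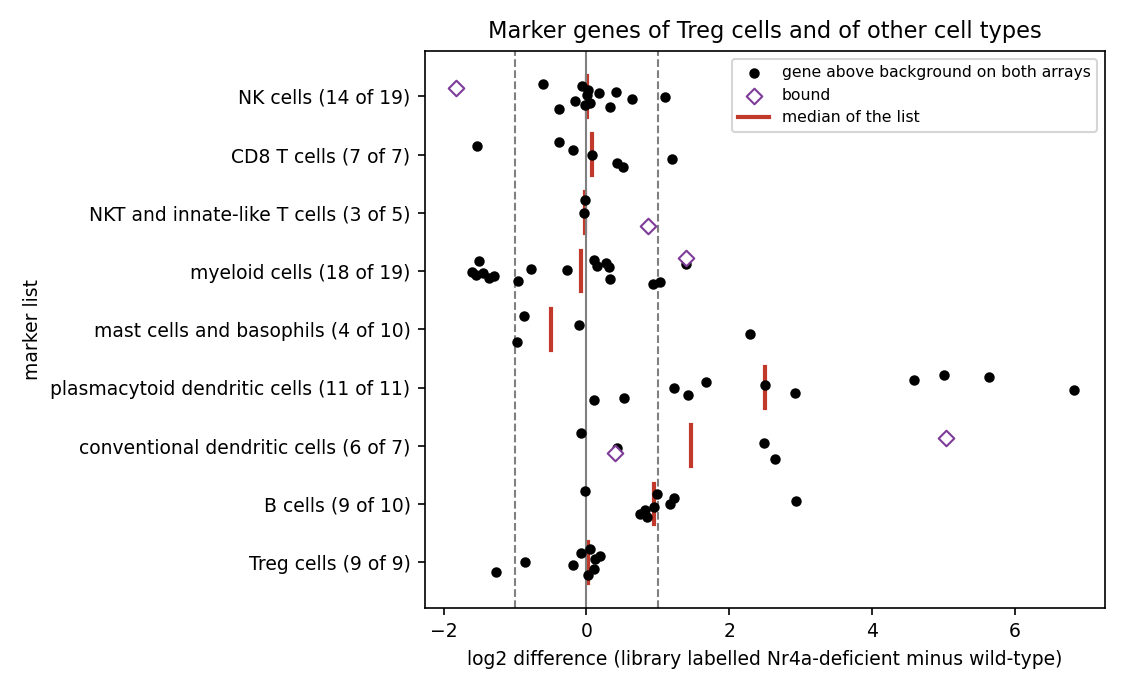
Log2 difference (x axis, library labelled Nr4a-deficient minus the wild-type library) of marker genes of each cell type (y axis, with the number of genes above background of those on the array). Points are genes, diamonds are bounds, red bars are list medians and dashed lines mark 2-fold. The NK cell markers centre on 0.012, and the plasmacytoid dendritic cell markers lie to the right with a median of 2.50.

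Promoter sequences were searched for 4 motifs of transcription factors. RefSeq promoter windows of 300 bases (250 before to 50 after a start site, GRCm38.p6) were matched for 25 of 36 members, 32 windows in all, and both strands were searched. The NBRE, the element bound by Nr4a monomers (AAAGGTCA), was in 0 of the 32 windows and in 1.51% of 32851 windows of all genes. The T-box element AGGTGTGA and the PU.1 core GAGGAAGT were also in 0 of the 32, against 1.27% and 3.20% of all windows. The Runx core TGTGGT was in 12 of the 32 windows, of 10 genes, against 16.8% of all windows. The 12 are not all separate, since Ncr1 and Klrc2 were counted in overlapping windows. The related genes Klrc2 and Klrc3 also had the match at the same positions (-76 and -49). The genes with a Runx match included Klrk1, Klrc3 and Ncr1, which were higher, lower and undetected, respectively. None of the 4 motifs contains another, and a match in such a window is a description of letters only.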

How the data were processed

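Treg cell RNA of 2 libraries was measured on 2 single-colour Agilent arrays of 1 slide and 1 scan. Per the labels' protocols, cells were lysed directly after sorting and cRNA was made with a low-input Cy3 labelling kit, which can distort rare transcripts. Per the file headers, the deposited intensity values are processed signals of Agilent Feature Extraction 10.7.3.1, background-subtracted within each array, and probe coordinates are mm9. No exon annotation of mm9 was used. Gene names were updated through RefSeq (GRCm38.p6), by accession for 27139 probes, symbol for 3561 and synonym for 558. Members kept the array's names, of which 31 of 36 are RefSeq symbols.

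The authors' deposited value table holds intensity on a linear scale, not centred, with column medians of 143.7 (library labelled Nr4a-deficient) and 156.8 (wild-type). It lay within 1% of the scanner signal for 99.7% of probes on both arrays and served as an alternative.

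Outlier spots (173 and 209) were left out, and 0 gene spots were saturated. The log2 signal minus the log2 of the array's 75th percentile (1762 and 2047) was the scaled value. The background was higher on the wild-type array (median of 153 negative-control spots 17.9, against 12.9). A probe was above background where over 50% of its spots had that call, and a gene was counted as higher or lower at 2-fold. Every member is accounted for, and listed genes were named by a rule: up to 4 per list and direction past 2-fold with the largest change, and defining markers. The lists' other named genes were chosen after their values were seen. Members, lists and motifs were chosen with earlier results of these data known. Identity between probes was taken over the whole overlap at the best gap-free alignment, which can miss a match within part of it. No member probe shared 20 bases in a row with a probe of another gene outside the set. Scripts used Python 3.11.15, numpy 2.4.6 and pandas 2.3.3, and R 4.3.3 with limma 3.58.1 for quantile, cyclic loess and normexp alternatives. With 1 array per group, the number of arrays limits the precision.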

Additional observations from a re-analysis of the deposited data

How the results depend on the processing

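Over 12 alternatives of scale, background, detection call, probe rule and source, 61 of 222 member values moved beyond the spot noise. Of the 222, 0 were counted as reversed, but only a member past 2-fold in the main setting could be. A bound that changed sign gave no value, as for Klrb1b and Klri2 with the spike-ins as the scale. Hcst, within 2-fold throughout, changed sign in 2 alternatives. Klra9 and Klrg1 were at least 2-fold higher under all 12, and Klrd1, Klrk1 and Klra17 stayed higher and Klrc3 lower under the 11 that gave them a value, with log2 values from 2.75 to 4.49 for Klrd1, 2.71 to 4.34 for Klrk1, 2.09 to 5.01 for Klra17 and -4.76 to -1.73 for Klrc3. With the background call required on both arrays, 10 members were left, 2 of them higher (Klra9 and Klrg1) and 0 lower, because the other calls are bounds. With the positive and significant call, 3 were lower (Klra12, Klrc1 and Klrc3), 9 higher and 28 above background, because dimmer probes enter. Klra16 dropped under 2-fold with the median, the spike-ins, quantile normalization, cyclic loess or normexp, which left 5 higher. With measured values in place of bounds 9 were higher, Klra22, Klra23 and Klri2 being added. The spike-ins as the scale moved the median of all genes to -0.39 and the calls over all genes to 3.02% higher and 8.13% lower, and with measured values 7.71% were higher and 5.74% lower. Positive and significant calls gave 2060 genes higher and 1786 lower of 23494, against 871 and 915, and the stricter call on both arrays 432 and 499. No paired analysis was possible because each group had 1 library. Signals near background limit Klra8, Klra16, Klra22, Klra23, Klrb1a, Klrb1b, Klrg2 and Klri2, and no value here includes a spread between animals.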
